A study of Homo sapiens with 5 samples.

Results

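The 3 RUNX genes encode transcription factors that bind DNA through a shared runt domain. RUNX1, RUNX2 and RUNX3 were examined here for an active histone mark and for binding of the myogenic factor MYF5 in tumour cells of muscle type. The measurements came from chromatin immunoprecipitation followed by sequencing (ChIP-seq). The cells were RD and RH18, established lines from human rhabdomyosarcoma without a PAX fusion, a childhood soft tissue cancer with skeletal muscle features. Histone H3 acetylated at lysine 27 (H3K27ac), a mark of active promoters and enhancers, was mapped in both lines, and MYF5 in RH18 alone. The H3K27ac antibody came from Active Motif and the MYF5 antibody from Santa Cruz, and all samples were fixed with 1% formaldehyde for 12 minutes. Each group held 1 library of an untreated line, so no value below has replicate error, no p-value is given, and a difference between the lines cannot be told apart from a difference between libraries.

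Members were all entries of the 3 peak lists that overlapped hg19 windows around the genes: chromosome 21 from 36100000 to 36470000 for RUNX1, chromosome 6 from 45240000 to 45570000 for RUNX2, and chromosome 1 from 25170000 to 25340000 for RUNX3. This gave 63 of 100703 entries: 30 of 43159 RD H3K27ac regions, 26 of 46408 RH18 H3K27ac regions and 7 of 11136 MYF5 peaks. All 63 are accounted for below. RUNX1 held 43 of them, RUNX2 18 and RUNX3 2.

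As background, a RUNX protein pairs with CBFB, a partner that does not itself touch DNA but strengthens binding to sites with the core TGTGGT, and it can recruit either acetyltransferases or corepressors of the Groucho (TLE) family. RUNX1 is best known in blood stem cells and leukaemia, RUNX2 in bone and cartilage, and RUNX3 in sensory neurons and lymphocytes. In skeletal muscle RUNX1 is low at rest and is induced after denervation and in regeneration. Each of the 3 genes is read from a distal and a proximal start, which give proteins with different first residues.

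Sequence upstream of these starts is shown first, and a link between its letters and acetylation was not tested. RefSeq sequences on GRCh38.p14 were given for the proximal starts of all 3 genes and for the distal starts of RUNX2 and RUNX3. The peak lists are on hg19, so the coordinates of these sequences are not to be compared with those of the peaks. Capitals mark CAGCTG, the E-box form favoured by myogenic factors, and TGTGGT or its reverse complement ACCACA. Printed are the 250 bases before the proximal starts of RUNX1 (chr21:34888700-34888949, minus strand) and RUNX2 (chr6:45422025-45422274, plus strand), at both of which the lines had H3K27ac, and before the distal start of RUNX2 (chr6:45328080-45328329, plus strand), at which neither had a listed region.
RUNX1 proximal: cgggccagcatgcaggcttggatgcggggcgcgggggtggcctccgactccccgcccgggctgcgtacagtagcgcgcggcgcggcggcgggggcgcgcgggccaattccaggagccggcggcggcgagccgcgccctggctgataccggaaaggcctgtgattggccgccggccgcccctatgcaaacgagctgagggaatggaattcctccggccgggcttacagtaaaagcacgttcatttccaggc
RUNX2 proximal: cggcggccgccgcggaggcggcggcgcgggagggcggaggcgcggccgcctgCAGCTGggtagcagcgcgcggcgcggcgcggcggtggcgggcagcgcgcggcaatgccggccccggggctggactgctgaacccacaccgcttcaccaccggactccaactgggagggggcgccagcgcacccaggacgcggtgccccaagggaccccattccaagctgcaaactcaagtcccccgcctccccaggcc
RUNX2 distal: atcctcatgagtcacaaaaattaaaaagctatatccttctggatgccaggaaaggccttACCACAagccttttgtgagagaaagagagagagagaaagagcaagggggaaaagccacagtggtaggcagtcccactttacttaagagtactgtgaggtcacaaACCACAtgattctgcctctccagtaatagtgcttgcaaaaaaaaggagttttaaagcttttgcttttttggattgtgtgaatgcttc

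The proximal upstream sequences were rich in G and C, at 71.2% for RUNX1, 78.0% for RUNX2 and 78.4% for RUNX3, against a median of 58.0% over 35116 RefSeq promoters. The distal ones were poorer, at 41.6% for RUNX2 and 67.6% for RUNX3. Neither RUNX3 start had listed H3K27ac within 2 kb in either line. Motifs were searched on both strands over 300 bases, of which 250 lay before the start and 50 after it. TGTGGT occurred 4 times at the RUNX2 distal start and 2 times at the RUNX3 distal start, and not in the proximal windows of RUNX1, RUNX2 or RUNX3. Of all promoters of the same length, 13.1% held it at least once and 1.31% at least 2 times. CAGCTG occurred 2 times at the RUNX2 proximal start and in none of the other 4 windows. Of all promoters, 18.0% held it at least once and 2.05% at least 2 times. The looser E-box CANNTG, which includes CAGCTG, was found in each window except that of the RUNX1 proximal start, and in 68.7% of all promoters. TGANTCA, the AP-1 form, was found at the RUNX2 distal start alone of the windows searched, and in 7.71% of all promoters.

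The distal starts of RUNX2 and RUNX3 held the same pair of RUNX cores, separated by 2 bases. This pair was singled out after the sequences had been seen. No sequence was given for the distal start of RUNX1, so that start was not searched. The pair lay after the RUNX2 start, with the cores beginning at bases 17 and 25, counted from 1 at the start. In RUNX3 it lay before the start, with the cores beginning at bases -131 and -123. The pair is shown with 4 bases on each side (RUNX2 chr6:45328342-45328363, plus strand; RUNX3 chr1:24965124-24965145, minus strand).
RUNX2 distal pair: aacaACCACAgaACCACAagtg
RUNX3 distal pair: ctcaACCACAgaACCACAaggc
Only 3 of 35116 promoters, those of 3 genes including RUNX2 and RUNX3, held this 14-base run on either strand. A match describes letters and does not show binding.

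Values per region are given in 2 forms. The fold is the authors' deposited enrichment at the summit over the peak caller's local background, and ranks regions within a list. The tags are the sequenced reads under the summit, recovered from fold and p-value as whole numbers. Each tag added 0.273 to the peak caller's pileup for RD H3K27ac, 0.658 for MYF5 and 0.832 for H3K27ac of RH18. Because 1 unit is added to pileup and background before the fold is taken, RD folds are compressed more, so neither folds nor tags are compared between lines. Instead each region's place in its own list is given. The lists held a median of 85 tags for RD H3K27ac, 57 for RH18 H3K27ac and 42 for MYF5, and their lowest −log10 p-values were 5.00, 7.09 and 9.09, so a region absent from a list may still carry signal below its end.

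The genes differed in how densely their windows were marked. RUNX1 was dense in all 3 lists: it held 18 RD and 21 RH18 H3K27ac regions and 4 MYF5 peaks in 370 kb, or 48.6, 56.8 and 10.8 per Mb, where the whole lists averaged 14.2, 15.3 and 3.67 per Mb of the chromosomes. RUNX2 held 12 RD regions in 330 kb (36.4 per Mb), above the RD average, 4 RH18 regions (12.1 per Mb), below the RH18 average, and 2 MYF5 peaks (6.06 per Mb). The marked bases of RUNX2 were nearly equal, at 3748 bp in RD and 3736 bp in RH18, or 1.14% and 1.13% of the window. The whole lists covered 0.698% and 1.07% of the chromosomes, so by bases RH18 was not below its average. With 50 kb added on each side RH18 had 11 regions. RUNX3 was sparse in H3K27ac, with no RD region and 1 RH18 region in 170 kb (5.88 per Mb). Its 1 MYF5 peak gave 5.88 per Mb, above the MYF5 average but resting on a single peak. These averages run over whole chromosomes, including stretches far from any gene.

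**Figure D1:**
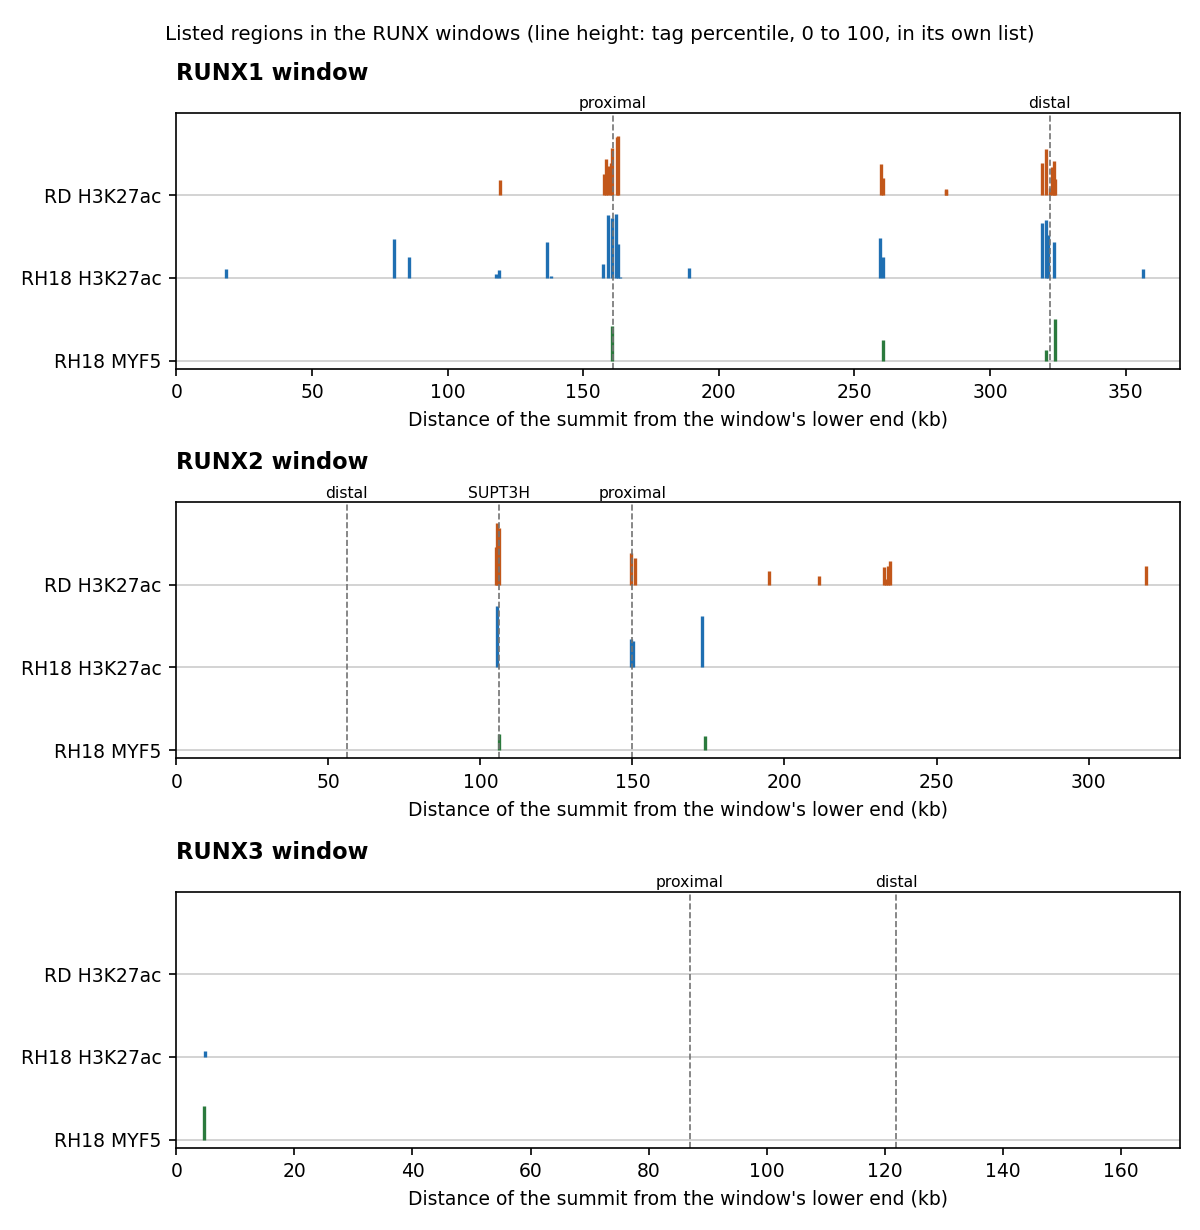
Each panel is 1 window, with the distance from its lower end in kb along the horizontal axis and 1 line per listed region at its summit; line height is the region's tag percentile, from 0 to 100, within its own list, and dashed lines are approximate transcription starts. RUNX1 shows marks of all 3 lists at both starts, RUNX2 none at the distal start, and RUNX3 a single pair of marks near the lower edge of its window.

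RUNX1 was acetylated at both starts in both lines. No hg19 annotation was used, and starts were placed to the nearest kb from general knowledge of that build, so they are approximate. Regions within about 12 kb of each other were joined. The group at the proximal start held 7 RD regions over 6.52 kb (36257416 to 36263934) and 6 RH18 regions over 6.11 kb (36257408 to 36263513). Its lower bounds in the lines differed by 8 bp and its upper bounds by 421 bp. The group at the distal start held 6 RD regions over 5.04 kb (36419112 to 36424147) and 4 RH18 regions over 5.23 kb (36418722 to 36423949), with bounds 390 and 198 bp apart. Together they made up 13 of 18 RD regions and 79.3% of the acetylated bases of the window, and 10 of 21 RH18 regions and 55.9% of the bases.

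At the proximal start the 7 RD regions rested on 63, 92, 78, 84, 123, 170 and 177 tags in order along the chromosome. The last 2, 36261222 to 36262418 and 36262596 to 36263934, were the highest of the window in RD, with more tags than 88.0% and 89.7% of the RD list. By fold these same regions were ordinary, at 8.91 and 7.04, or above 58.5% and 38.3% of the list. Their local background stood at 6.76 and 9.40 times the lowest of the list, where the list's median was 2.34, and its part in these folds was not tested. The region of lowest fold in this window, 36258741 to 36259465, had a fold of 5.57 on 78 tags with a background of 4.70 times the lowest.

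The 6 RH18 regions of the proximal group rested on 32, 220, 184, 247, 60 and 20 tags. The middle ones formed a block: 36258162 to 36259542 (fold 46.0), 36260186 to 36261021 (fold 34.0) and 36261123 to 36262494 (fold 41.3) had more tags than 94.8%, 90.8% and 96.8% of the RH18 list. Background under this block was 2.27 to 3.03 times the lowest, above the list's median of 1.52. The last region of the group, 36263293 to 36263513, had the fewest tags of the RH18 members. It lies inside the widest RD region of the group, which had the most tags of that window in RD. The RD region of 170 tags and the RH18 region of 247 tags had nearly the same summit, at 36262297 and 36262270. By tags the lines differed on both sides of this summit. Below it RH18 had 2 regions with more tags than 94.8% and 90.8% of its list, where the highest RD region exceeded 71.6% of its own. Above it RD had its highest count. By fold the lines were closer there. The RD region of that count stood above 38.3% of its list, and the RH18 regions of 60 and 20 tags above 35.7% and 12.4% of theirs.

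At the distal start the strongest RH18 regions of the window by fold were found. The region 36420434 to 36420917 had a fold of 54.0 on 164 tags, and 36418722 to 36419488 had a fold of 51.4 on 142 tags, above 94.5% and 93.6% of the list by fold. The other 2 rested on 81 and 64 tags. The 6 RD regions there had 83, 120, 43, 75, 88 and 55 tags. The widest RD member, 36419897 to 36421650 (1754 bp, fold 11.2), spanned both of the RH18 regions 36420434 to 36420917 and 36421268 to 36421651 but for the last base of the second. The highest RD fold of the window was 15.3, at 36423255 to 36423734, above 87.0% of the list. RD regions lay closer together here, with gaps of 107 to 686 bp, than those of RH18, with gaps of 350 to 1894 bp.

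With groups ordered by fold multiplied by width, summed over their regions, the distal group was 1221 and the proximal group 1562 of 16671 in RD, while in RH18 the proximal group was 1184 and the distal group 2637 of 18842. The order of the 2 groups in RD depended on this measure. By covered bases the proximal group came first in both lines, with 4489 against 3631 bp in RD (rank 679) and 4405 against 2039 bp in RH18 (rank 1338). By fold and width they stood, in the order given, in the top 7.32, 9.37, 6.28 and 14.0% of their lists.

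Between and beyond the starts of RUNX1, outside both groups, RD had 5 regions of 39 to 81 tags and RH18 11 of 21 to 74 tags, and 3 of each overlapped the other line, where 60.0% of the whole RD list and 45.1% of the whole RH18 list did. The shared ones were a pair at 36359126 to 36360880 in RH18 and 36359140 to 36360561 in RD, and a weak region, 36218828 to 36219299 in RD (54 tags, more than 23.6% of its list) and 36218723 to 36219308 in RH18 (27 tags, more than 12.2%). The highest unshared RH18 region, 36179981 to 36180930 (fold 25.9, 71 tags), lay 37897 bp from the nearest RD region. Next came 36236618 to 36237085 (fold 23.3, 64 tags), 17318 bp from one. Other RH18 regions without an RD partner had 40, 29, 28, 28, 23 and 21 tags. RD regions outside the groups that RH18 lacked were a neighbouring pair, 36383577 to 36383745 and 36383854 to 36384040, with 39 and 41 tags, 22696 and 22973 bp from the nearest RH18 region. The highest fold among RD regions without a partner was 13.1, at 36422763 to 36423041 in the distal group, 504 bp from an RH18 region. The last unpartnered RD region, 36421877 to 36422076 (43 tags), was 225 bp from one.

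In the RUNX1 window 14 of 18 RD regions (77.8%, exact Clopper-Pearson 95% interval 52.4 to 93.6%) overlapped an RH18 region by at least 1 bp, where 60.0% of the whole RD list did. Of the RH18 regions 13 of 21 (61.9%, 38.4 to 81.9%) overlapped an RD region, against 45.1% of the whole list. Both intervals, which cover counting error only, include the share of the whole list. They treat regions as independent, although 13 RD and 10 RH18 regions were neighbours in the groups at the starts. The intervals may therefore be too narrow. Measured in bases, 6550 of the 15212 bp marked in either line were marked in both (43.1%, whole lists 30.7%). Shared regions of the window rested on more tags than unshared ones in each line, with medians of 83.5 against 42 in RD and 74 against 28.5 in RH18. Regions of few tags are nearer the end of a list, and the part of this in the sharing was not tested. With overlap of 50% of both regions required, the shares fell to 27.8% in RD and 23.8% in RH18. With −log10 q of at least 10 in both lists they were 92.9% in RD and 61.9% in RH18. No whole-list share is given for either rule, so these values are not to be set against 60.0% and 45.1%.

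**Figure D2:**
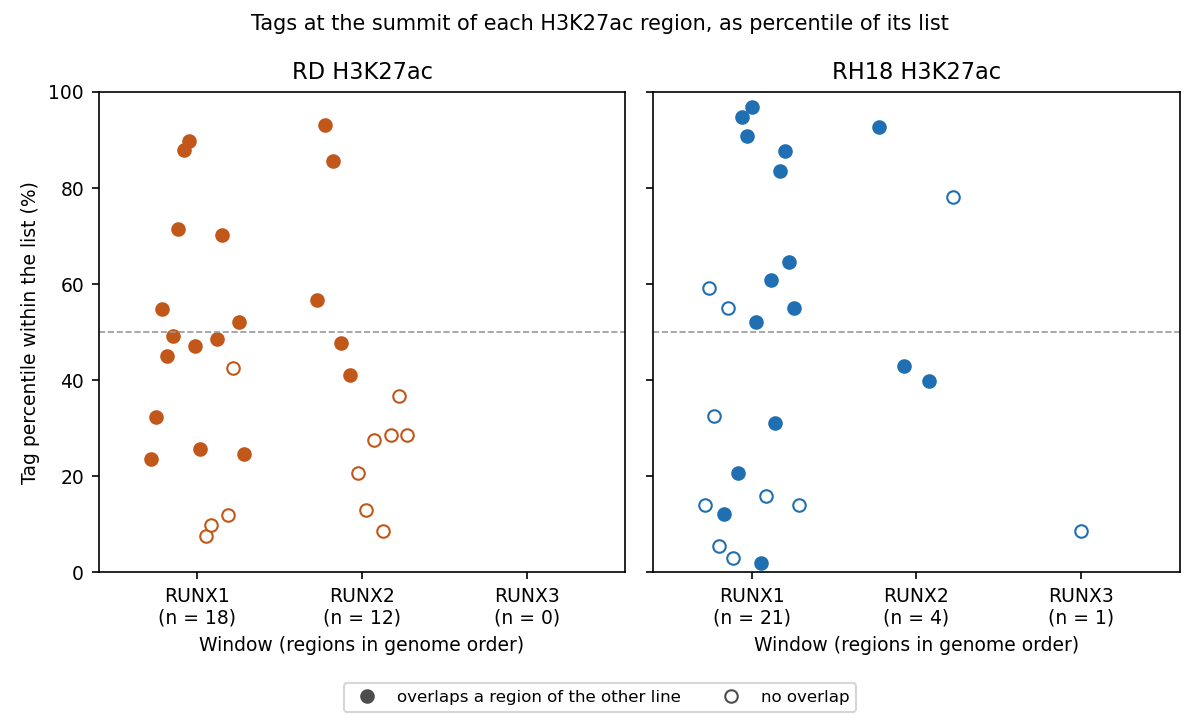
Each point is 1 H3K27ac region, placed by the share of its own list with fewer tags (vertical axis, percent) and by window and genome order (horizontal axis), and filled where it overlaps a region of the other line. In RD every unfilled point lies below the list median, while in RH18 unfilled points of RUNX1 and RUNX2 also lie above it, up to the RUNX2 region of 120 tags.

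MYF5, a basic helix-loop-helix factor of muscle progenitors, had 4 peaks at RUNX1. All 4 summits lay inside RH18 H3K27ac regions, where 55.2% of the whole MYF5 list did. The peak at the proximal start, 36260247 to 36260613, rested on 44 tags, more than 52.8% of the MYF5 list, but had a fold of 4.28, which only 0.862% of the list fell below. The background under it was 5.84 times the lowest. Fold and p-value allowed 2 solutions for the tags and background of this peak, and the one nearest a whole tag was taken. The contrast of its tags with its fold is therefore less certain. The peak sat in the RH18 region of 184 tags, and its summit was 10 bp outside an RD region. Near the distal start were the peaks 36420504 to 36420791 (31 tags, fold 9.70) and 36423724 to 36424035 (49 tags, fold 16.4), the second being the highest MYF5 fold and tag count of the 7. The first had its summit 62 bp from that of the RH18 region of fold 54.0, so the strongest H3K27ac fold of the window went with its fewest MYF5 tags. The other peak, 36360566 to 36360758 (36 tags, fold 12.2), lay at the shared pair of regions between the starts. Its summit lay in the RH18 region 36360331 to 36360880 and 101 bp past the edge of the RD region 36360035 to 36360561. Of the 4 summits, 2 were inside RD regions, where 39.9% of the whole MYF5 list was. All 4 were within 500 bp of an RD region, as were 62.9% of the whole MYF5 list.

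RUNX2 showed another arrangement. Its distal start had no entry in any of the lists, and the nearest H3K27ac in either line was about 49 kb away. The strongest marks of the window lay at that place, which by general knowledge of hg19 is the start of SUPT3H, a gene for a transcription coactivator subunit that overlaps RUNX2 and is read the other way. RH18 had 1 region there, 45345047 to 45346413, with a fold of 45.6 on 199 tags, more than 92.6% of its list. RD had 3 regions over the same stretch, with 95, 193 and 161 tags. The middle one (45345394 to 45345687) had more tags than 93.1% of the RD list, and the third (45345915 to 45346370) had the highest RD fold of the window, 15.0. A MYF5 peak of 34 tags (45345927 to 45346102, fold 9.83) had its summit inside the RH18 region and the third RD region. H3K27ac there cannot be assigned to RUNX2 rather than to SUPT3H.

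At the proximal start of RUNX2 both lines had 2 regions of middling height and no MYF5 peak. In RH18 these were 45389273 to 45389743 (49 tags, fold 18.0) and 45389918 to 45391312 (46 tags, fold 10.8), with more tags than 42.9% and 39.7% of the list. In RD they were 45389301 to 45389702 (82 tags, fold 4.67) and 45390818 to 45391065 (73 tags, fold 3.40), with more tags than 47.8% and 41.0% of the list. The RD folds were among the lowest of that list, above 8.82% and 1.61% of it. Background under the RD regions was 6.27 and 8.06 times the lowest, and under the RH18 regions 1.00 and 2.01 times. Placed by fold the RH18 regions stood above 61.6% and 35.9% of their list, so the lines' ranks at this start were closer by tags than by fold. The nearest MYF5 peak was about 24 kb away.

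Above the proximal start of RUNX2 no region was shared. None of the 7 RD regions there overlapped an RH18 region, where 60.0% of the whole RD list did. That share covers regions of every height, whereas all 7 had fewer tags than the list median. Their tag percentiles were 8.51 to 36.8, and the part of this in the lack of sharing was not tested. A group of 4 lay from 45472631 to 45474877, with 58, 40, 59 and 68 tags and folds of 7.27 to 11.9, and the nearest RH18 region was 59473 bp or more away. It ranked 4454 of 16671 joined groups in RD, the best of this window. Single RD regions stood at 45434730 to 45434906 (51 tags), 45451424 to 45451625 (44 tags) and 45558660 to 45558936 (59 tags). RH18 had 1 region there without an RD partner, 45412655 to 45413157. It rested on 120 tags, more than 78.2% of its list. Its fold was 14.4, over a background 4.55 times the lowest, and the nearest RD region was 21572 bp away. A MYF5 peak, 45413700 to 45413918 (33 tags, fold 11.2, background 1.00 times the lowest), had its summit 649 bp beyond that region and 20922 bp from the nearest RD region. It was the only one of the 7 MYF5 summits more than 500 bp from any RH18 region.

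Over the RUNX2 window 5 of 12 RD regions (41.7%, 15.2 to 72.3%) and 3 of 4 RH18 regions (75.0%, 19.4 to 99.4%) overlapped a region of the other line. Of the whole lists 60.0% and 45.1% did, which both intervals include. Here too the intervals treat regions as independent, although 3 RD regions at the SUPT3H start overlapped 1 RH18 region. All of the shared ones were at the SUPT3H start or the proximal start of RUNX2. Bases marked in both lines came to 1628 of 5856 (27.8%, whole lists 30.7%). With overlap of 50% of both regions required, the shares were 8.33% in RD and 25% in RH18. With only regions of −log10 q of at least 10 kept they were 33.3% and 25%. Both RD regions at the proximal start, with −log10 q of 7.81 and 4.06, were then left out. No whole-list share is given for either rule. The lower count in RH18 depended on where the window ended. Within 50 kb past the upper bound RH18 had 7 further regions, from 45576457 to 45619910, with up to 121 tags and a fold of up to 43.8, none of which overlapped an RD region, and a MYF5 peak of 78 tags (45615142 to 45615424). RD had 1 region of 39 tags in that stretch. With the window widened by 50 kb on each side RH18 had 11 regions and RD 13.

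RUNX3 had no listed H3K27ac or MYF5 within 2 kb of either start in any of the lists. From the distal start the nearest H3K27ac region was about 57 kb away in both lines, outside the window. From the proximal start it was about 82 kb away in RH18 and 92 kb in RD. The 2 members of the window lay together near its lower edge, between RUNX3 and the neighbouring gene CLIC4. The RH18 H3K27ac region, 25174683 to 25174918, was weak, with 25 tags and a fold of 8.42, more tags than 8.57% of its list. The MYF5 peak, 25174521 to 25174973, was of median height, with 43 tags and a fold of 13.1, more tags than 50.5% of its list. It was wider than the acetylated region and covered it whole, but its summit stood 32 bp outside. The nearest RD region was 82112 bp from the acetylated one. Without a listed region in RD, no share could be given for RUNX3 in that line.

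**Figure D3:**
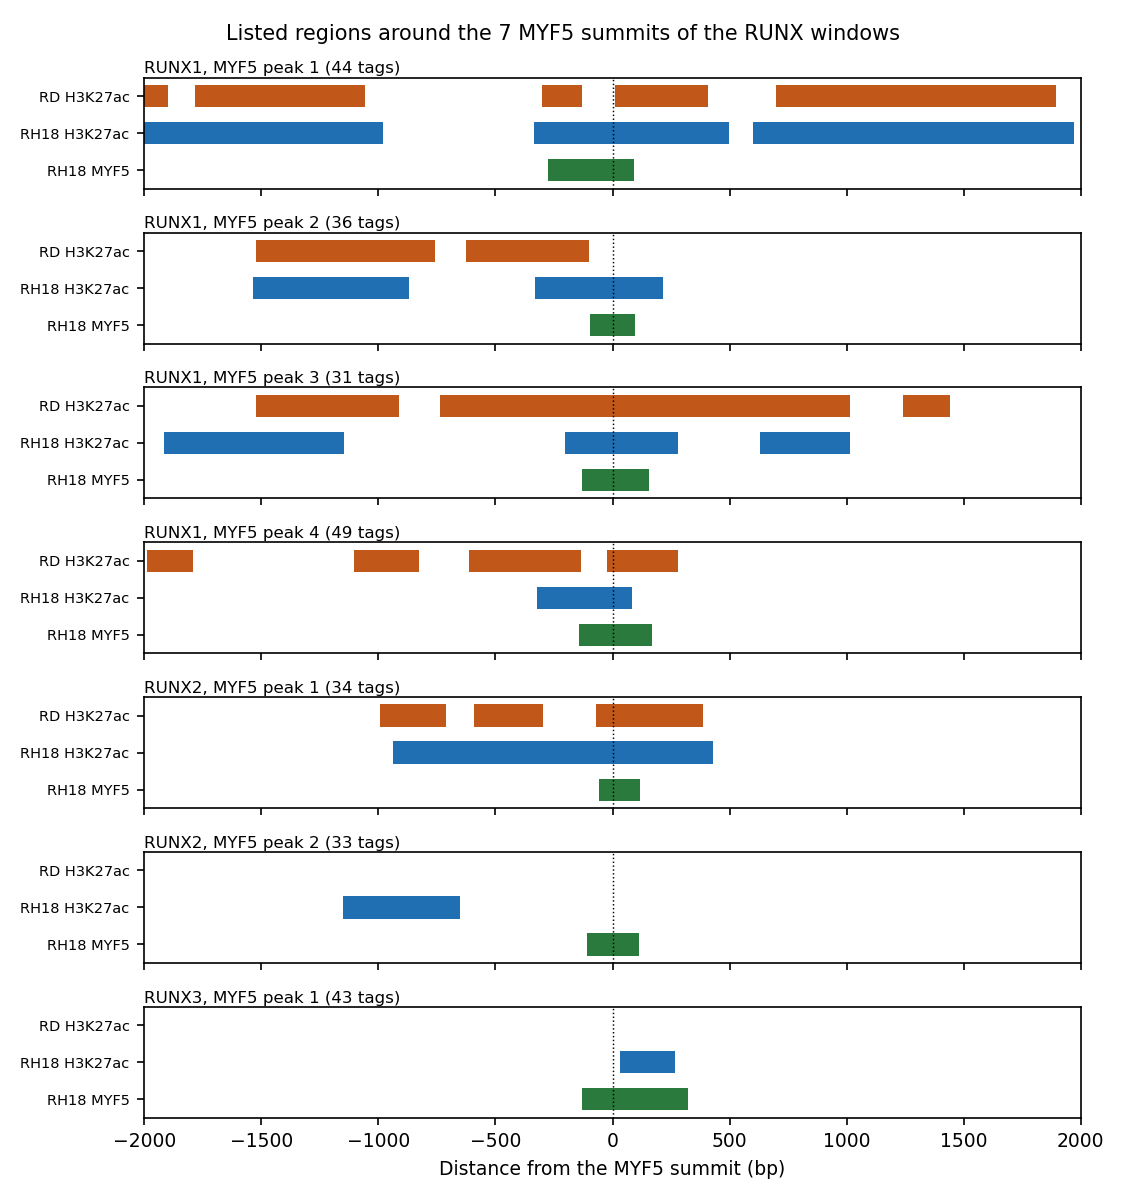
Each panel is centred on the summit of 1 MYF5 peak of a RUNX window, and bars show listed regions of the 3 lists within 2000 bp on either side (horizontal axis, distance in bp). The 4 RUNX1 summits and the first RUNX2 summit have H3K27ac of both lines beneath or beside them, whereas the second RUNX2 summit and the RUNX3 summit have no RD region within 2000 bp.

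Over the 3 genes together, 5 of the 7 MYF5 summits (71.4%, 29.0 to 96.3%) lay inside RH18 H3K27ac regions, where 55.2% of the whole MYF5 list did, and 3 of 7 (42.9%, 9.90 to 81.6%) inside RD regions, where 39.9% did. Seen from the acetylated side, 5 of 26 RH18 regions (19.2%, 6.55 to 39.4%; whole list 12.0%) and 3 of 30 RD regions (10.0%, 2.11 to 26.5%; whole list 9.71%) held a MYF5 summit. Each interval includes the share of the whole list, and each treats neighbouring entries as independent. MYF5 peaks of these genes rested on 31 to 49 tags, and 3 of the 7 exceeded the list median of 42. Among those 3, the peak of 44 tags at the RUNX1 proximal start had 2 solutions for its tags. Unspecific signal of the MYF5 antibody was not measured, so its part in these peaks was not tested.

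The genes of RUNX partners were looked at in the same lists. For 10 of them (CBFB, TLE1, TLE2, TLE3, TLE4, EP300, CREBBP, CBFA2T2, CBFA2T3 and SIN3A), taken with 5 kb on each side and with bounds placed from general knowledge, both the RD and the RH18 lists had 40 regions, and every gene had at least 1 in each. No share over other genes was computed, so these counts describe the 10 genes and show nothing particular to RUNX partners. A region lay within 2 kb of the main start of 8 genes in RD and of 9 in RH18, TLE2 lacking one in both and CREBBP in RD. Of the 40 regions in each list, 27 in RD and 22 in RH18 were shared, where 60.0% and 45.1% of the whole lists were. CBFB, the shared partner of the RUNX proteins, had 2 regions in each line, all shared. Its regions had up to 190 tags and a fold of up to 17.6 in RD, and up to 173 tags and a fold of up to 52.8 in RH18. These values are not compared between the lines. MYF5 had no peak there. Within the RD list, whose median was 85 tags, EP300, an acetyltransferase, had up to 165 and CREBBP, its close relative, up to 40. Within the RH18 list, whose median was 57 tags, they had up to 244 and 47. The corepressor genes TLE4, CBFA2T2, CBFA2T3 and SIN3A were those with MYF5 peaks, 10 in all: 4 at CBFA2T2 and 2 at each of the others. RH18 H3K27ac regions held both MYF5 summits at CBFA2T3 and at SIN3A, 2 of 4 at CBFA2T2 and 0 of 2 at TLE4. Of the whole MYF5 list 55.2% lay inside such regions, and counts this small do not separate the genes.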

How the data were processed

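Peak lists of 3 ChIP libraries, 1 list per library, were used; the 2 input samples had no list here. The submitters' processing notes name BWA 0.7.10, MACS2 2.1.0 and hg19 but not the settings. Each deposited list gives a region's fold (a ratio over local background), −log10 p- and q-values, a summit, and a score that was not used. Pileup and background were solved from fold, (pileup + 1)/(background + 1), and the Poisson tail p-value, taking backgrounds not below the list's commonest value; tags are pileup over the worth of 1 tag. They were whole within 0.1 tag for 100.0% of the regions of each list. More than 1 solution existed for 16 of 30, 3 of 26 and 1 of 7 members (RD, RH18 H3K27ac, MYF5), and the nearest whole tag was taken. For such regions wholeness follows in part from that choice and does not check their tags. Among regions with 1 solution, 100% were whole in each list. The step was also run on simulated data, and the outcome is not given here. Library depth is not given in the sources used here.

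Overlap meant at least 1 bp for regions and the summit for MYF5. Densities divide list length by the summed chromosome ends in the lists (3036.9 Mb). Members and gene lists were chosen with earlier results of these data known. Named were the peaks and regions of highest fold, the widest, the highest found in one line, and those at starts, plus all others by value. Scripts ran under Python 3.11.15 with scipy 1.17.1, pandas 2.3.3 and numpy 2.4.6, and figures were drawn with matplotlib 3.10.9. RefSeq promoter sequences are of GRCh38.p14, and they had no entry for the RUNX1 distal start.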

Additional observations from a re-analysis of the deposited data

How the results depend on the processing

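Of 74 alternative values, 64 stayed within the interval of a share or within 1.5 times a count or rank, and 10 moved. With overlap of 50% of both regions, for which no whole-list share is given, the shared share at RUNX1 was 23.8% in RH18 and 27.8% in RD. At RUNX2 it was 8.33% in RD. The RH18 share at RUNX2, from 75.0%, was 25% under that rule and under −log10 q of at least 10, which its wide interval still includes. Windows widened by 50 kb on each side held 11 RH18 regions at RUNX2, and 1 RD and 2 RH18 regions at RUNX3. With summits within 500 bp counted, 4 RUNX1 MYF5 peaks were at RD regions and 1 RUNX3 peak at an RH18 region; any overlap of the peak also gave 1 at RUNX3. Ranked by covered bases, the top RD group of RUNX1 was 679, and was the proximal one in place of the distal. These changes follow from what each alternative counts. No paired analysis was possible because each group held 1 library, and no library could be left out. Placing starts and partner genes rests on general knowledge of hg19, and the lists end at different p-values, which limits what an absent region shows.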
